A study of Homo sapiens with 9 samples.

Results

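VEGFA, ANGPTL4, STC1 and BNIP3 are 4 of the 14812 genes measured on whole-transcript arrays of WM266-4 GFP cells, a human cell line grown from a melanoma metastasis. The 4 genes were selected on their log2 intensities, because replicate 1 lay above replicates 2 and 3 in every transfection group, so that difference is described here and not tested. Cells were lipofected with a control microRNA at 0.5 nM, with a mimic of miR-199a-3p at 0.5 nM, or with the same mimic at 0.25 nM, and RNA was taken after 48 h. Each group held 3 arrays, labelled as biological triplicates, all of 1 cell line. The control was given only at 0.5 nM, so at 0.25 nM the amount of small RNA and the mimic changed together. The labels do not say what arrays of the same replicate number share.

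All 4 genes are known to be induced when oxygen is low. Hypoxia-inducible factors, dimers of an oxygen-labile alpha subunit and ARNT, bind a short core sequence near such genes and raise their transcription, while prolyl hydroxylases and the VHL protein remove the alpha subunit when oxygen is present. VEGFA is the main growth factor for blood vessel endothelium and acts through the receptors FLT1 and KDR with neuropilins as co-receptors. ANGPTL4 is a secreted inhibitor of lipoprotein lipase that PPAR receptors also induce. STC1 is a secreted glycoprotein hormone, and BNIP3 is a mitochondrial outer membrane protein that recruits the autophagy machinery. Each is also known to respond to other signals, so none of them marks low oxygen alone.

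The mimic carries the sequence of the mature microRNA, shown here from RefSeq (GRCh38.p14) with its seed, bases 2 to 8, in capitals, because the seed is the part that pairs with target transcripts. It is encoded at chr1:172144554-172144575 and chr19:10817429-10817450, both on the minus strand.
hsa-miR-199a-3p: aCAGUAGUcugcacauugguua

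The promoters of 2 of the 4 genes were matched in the RefSeq table and are shown because the core bound by hypoxia-inducible factors can be read in them. The motifs searched were ACGTG and GCGTG on both strands, and matches are in capitals in the 250 bases before the transcription start. The ANGPTL4 window is chr19:8363905-8364154 on the plus strand and the BNIP3 window chr10:131981924-131982173 on the minus strand (GRCh38.p14), each written along the gene.
ANGPTL4: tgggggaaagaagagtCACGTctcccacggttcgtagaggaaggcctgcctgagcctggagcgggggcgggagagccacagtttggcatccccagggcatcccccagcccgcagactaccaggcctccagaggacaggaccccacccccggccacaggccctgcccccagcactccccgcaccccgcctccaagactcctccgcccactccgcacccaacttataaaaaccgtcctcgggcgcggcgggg
BNIP3: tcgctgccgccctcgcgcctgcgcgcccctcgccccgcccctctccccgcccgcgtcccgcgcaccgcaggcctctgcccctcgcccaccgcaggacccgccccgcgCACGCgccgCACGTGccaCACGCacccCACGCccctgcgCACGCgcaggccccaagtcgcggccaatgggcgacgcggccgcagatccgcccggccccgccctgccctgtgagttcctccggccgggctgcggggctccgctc

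The ANGPTL4 window held 1 match, an ACGTG on the opposite strand at 234 to 230 bases before the start. The BNIP3 window held 6 matches between 143 and 100 bases before the start: 4 of GCGTG and 2 of ACGTG, the latter overlapping as the palindrome CACGTG. Of 35116 promoter windows of this length, 43.2% held at least 1 match of either motif, 18.5% one of ACGTG and 32.2% one of GCGTG. As many as 6 matches were found in 0.646% of windows. A match is a description of the letters and not evidence of binding.

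The cells carried the markers of their labelled lineage: 7 of 8 melanocytic markers were measured, and all 7 were brighter than the median gene (6.25 log2 units), from MLANA at 8.17 to TYR at 12.76. All 4 measured endothelial, all 5 measured keratinocyte and all 2 measured fibroblast markers lay below that median. Of 3 measured leukocyte markers 2 lay below it, while CD68 lay above it at 9.64. As in all bulk samples, a lower value cannot tell fewer expressing cells from less RNA per cell. Exactly equal values on all 3 arrays of a group were found for 40.6% to 47.2% of genes, while no gene had an equal value on arrays of different groups. Differences between groups therefore carry any difference in how the groups were processed, and its part in them was not tested. Within a group, replicates 1 and 2 had equal values for 52.2% to 56.3% of genes. A difference near 0 between replicates therefore does not show equal RNA in the cells. Equal values also add little or no spread to the tests used here. Shares of genes passing and p-values therefore do not measure agreement between independent arrays.

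VEGFA lay higher on the first array of each group. Its deposited log2 intensities were 8.45, 7.64 and 7.72 in replicates 1, 2 and 3 of the control, 8.84, 7.67 and 7.80 at 0.5 nM, and 8.79, 7.99 and 7.99 at 0.25 nM. Replicate 1 was high in every group, and the lowest of the 3 replicate 1 values lay above all 6 values of replicates 2 and 3. After each array had been shifted to a common median, replicate 1 exceeded the mean of the other replicates by 0.77, 1.11 and 0.82 log2 units in control, 0.5 nM and 0.25 nM, a mean of 0.90 ± 0.19 (SD over the 3 groups), or 1.87-fold.

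ANGPTL4 showed the same order of arrays. Values were 8.36, 7.68 and 7.77 in the control replicates, 8.13, 7.29 and 7.31 at 0.5 nM, and 8.18 and 7.20 in replicates 1 and 2 at 0.25 nM. The value of 0.25 nM replicate 3 was left out because the deposited column drops digits there. Replicate 1 exceeded the others by 0.64, 0.84 and 1.00 log2 units, a mean of 0.83 ± 0.18 (SD over groups), or 1.77-fold. The fit over all groups, which has no value for the left-out array, gave 0.80. Again no value of replicates 2 and 3 reached any value of replicate 1.

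STC1 had the widest gap and the dimmest signal of the 4. Values were 5.75, 3.96 and 3.96 in control, 5.14, 3.83 and 3.90 at 0.5 nM, and 5.89, 4.43 and 4.43 at 0.25 nM. Replicates 2 and 3 were exactly equal in the control and at 0.25 nM, and all 6 of their values lay below every replicate 1 value. The excess of replicate 1 was 1.79, 1.29 and 1.48 log2 units, a mean of 1.52 ± 0.25 (SD over groups), or 2.86-fold. With a mean level of 4.59, at percentile 20.5 of all genes, it was dimmer than most genes on these arrays, and the table used gives no detection call. Array values of dim genes carry a share of background signal, so its fold is a difference in signal.

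BNIP3, the brightest of the 4 at percentile 96.4, had the smallest gap. Values were 10.23, 9.78 and 9.79 in control, 10.89, 10.26 and 10.26 at 0.5 nM, and 10.29, 9.88 and 9.83 at 0.25 nM. Within each group replicate 1 was high, but replicates 2 and 3 at 0.5 nM reached the level of replicate 1 in the control, so across groups the values overlapped. The excess of replicate 1 was 0.45, 0.64 and 0.45 log2 units, a mean of 0.52 ± 0.11 (SD over groups), or 1.43-fold.

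**Figure D1:**
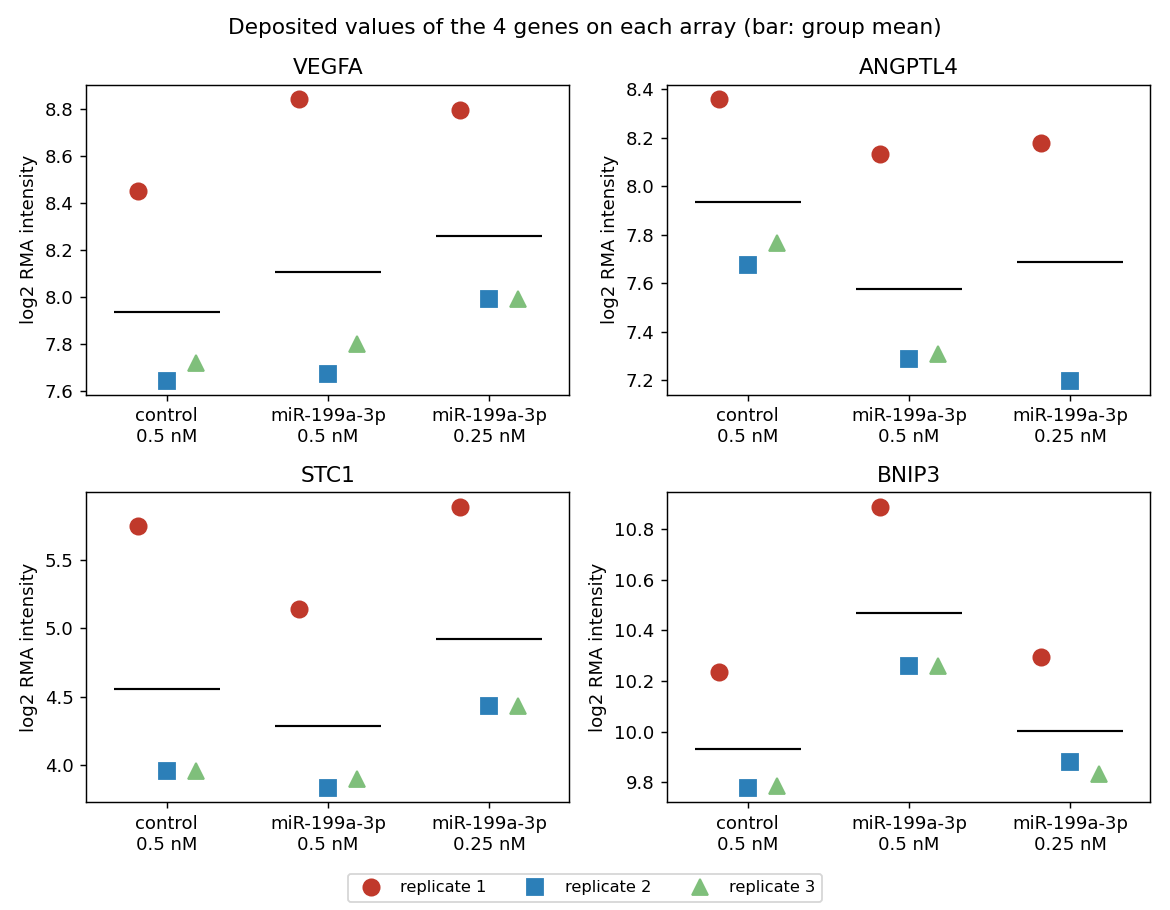
Deposited log2 RMA intensity (vertical axis, a separate range per gene) of VEGFA, ANGPTL4, STC1 and BNIP3 on each array, by transfection group; symbols give the replicate number and bars the group mean, over 2 arrays for ANGPTL4 at 0.25 nM. Replicate 1 is the highest array of every group, by the widest gap for STC1.

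Replicates 2 and 3 differed little from each other for these genes: the largest difference of the 4 in any group was -0.12 log2 units, replicate 2 minus replicate 3, for VEGFA at 0.5 nM. In the fit of all genes with group and replicate number as factors, 0 genes passed for replicate 2 against replicate 3 (limma, adjusted p under 0.05, and 109 at an unadjusted p under 0.05). Replicates 2 and 3 had exactly equal values for 60.6% to 67.6% of genes in a group, so most genes could not differ there. The 0 calls therefore do not measure agreement between independent arrays.

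The pattern was not limited to the 4 genes. On the deposited values, 557 of 14812 genes (3.76%) had replicate 1 above both other replicates in every group, and 1325 (8.95%) had it below both. Ranked by the fitted difference, STC1 came first of all 14812 genes, VEGFA 15th, ANGPTL4 21st and BNIP3 74th. Ranked by the smallest gap in any group, BNIP3 came 42nd with 0.413 log2 units, between FBXO32 at 0.414 and IFITM2 at 0.411. These places describe how the 4 were picked. Over all genes, 643 (4.34%) passed limma for replicate 1 against the others, 193 higher and 450 lower. That number fell to between 213 and 416 without any 1 control array, 0.5 nM replicate 2 or any 1 array of the 0.25 nM group.

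**Figure D2:**
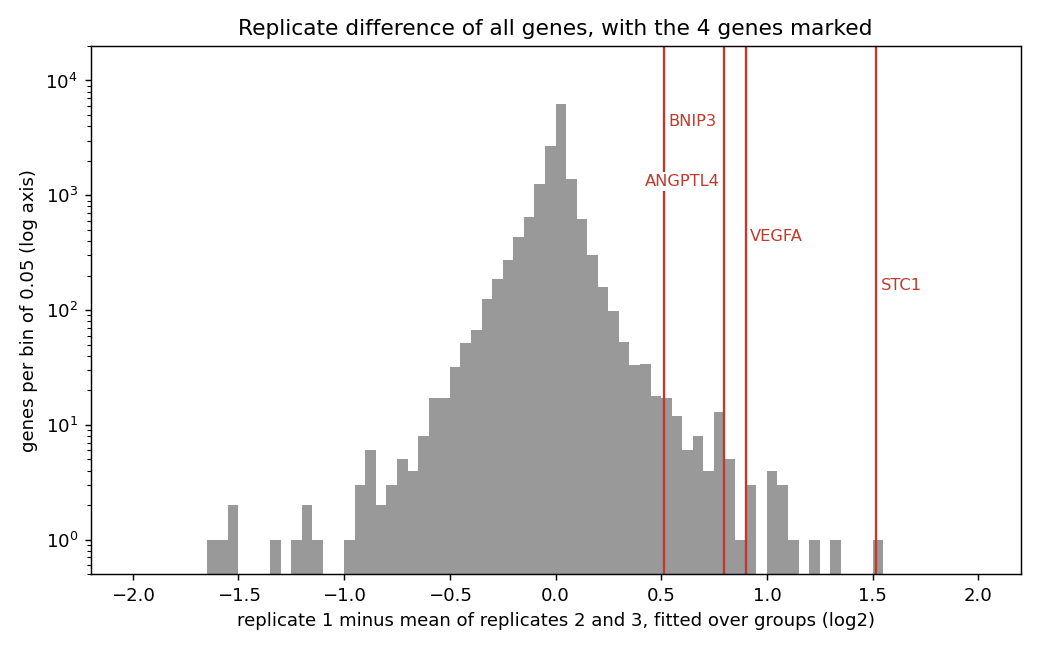
Number of genes (logarithmic axis, bins of 0.05) by the difference of replicate 1 from replicates 2 and 3, fitted over groups (log2 units); lines mark the 4 genes. The genes gather around 0, and STC1 at 1.52 is the furthest to the right.

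Genes of glucose uptake and glycolysis and other genes known to respond to hypoxia were set beside the 4. Over the joined lists, 36 genes were measured. DDIT4, a stress-induced inhibitor of mTORC1 signalling, passed as higher in replicate 1, and HMOX1, which degrades haem, passed as lower. This is 1 gene in each direction, where 1.3% of all genes passed as higher and 3.04% as lower. The median difference of the 36 genes was 0.02 log2 units, against 0.01 for all genes, and 24 lay above 0. The shift of arrays alone puts a gene with equal deposited values on the arrays of each group at 0.0092. The number above 0 therefore gives no direction. A difference of at least 0.4 was seen for 3 of the 36 (8.33%), DDIT4, INSIG2 and TMEM45A, and for 132 of all genes (0.891%). The number passing as higher was 0 without any 1 control array, 0.5 nM replicate 2 or 3 or 0.25 nM replicate 3, and with no shift. It was 2 without 0.5 nM or 0.25 nM replicate 1, and 3 with dim genes left out. The number passing as lower was 0 without any 1 control array or 0.25 nM replicate 2, and 2 without 0.5 nM replicate 1. A count this small does not say whether the hypoxia genes as a group went with the 4, which are called here by their symbols.

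DDIT4 read 9.67, 9.27 and 9.25 in control, 9.63, 9.01 and 8.99 at 0.5 nM, and 9.36 and 9.02 in the kept arrays at 0.25 nM, a difference of 0.49 ± 0.061 (SE; limma adjusted p = 0.0366). Replicate 1 was the highest array in all 3 groups, but the call was lost in 11 of 15 other settings, among them each control array left out. HMOX1 read 6.48, 6.77 and 6.81 in control, 6.97, 7.43 and 7.43 at 0.5 nM and 7.35, 7.63 and 7.63 at 0.25 nM. Its replicate 1 was the lowest array of each group, with a difference of -0.34 ± 0.0365 (SE; limma adjusted p = 0.0143), a call lost in 5 of 15 settings, each control array left out among them.

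Further listed genes lay on the same side as the 4 without passing. INSIG2, an endoplasmic reticulum protein that retains sterol sensors, lay 0.51 higher in replicate 1 (limma adjusted p = 0.0788) and TMEM45A 0.46 (limma adjusted p = 0.117). The glycolytic enzymes PGK1 and LDHA lay at 0.26 and 0.20 (limma adjusted p = 0.119 and 0.140), each with replicate 1 highest in all 3 groups. Of the 10 measured glycolysis genes 0 passed in either direction. Other widely used hypoxia markers showed values near 0: ADM, encoding the vessel-dilating peptide adrenomedullin, at 0.02, NDRG1 at 0.03 and CA12, a carbonic anhydrase, at 0.04. ADM read 8.54, 8.51 and 8.51 in control, 8.03 on each array at 0.5 nM and 8.26 on each at 0.25 nM. SLC2A1, CA9 and PDK1 were not analysed here.

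HILPDA, a lipid droplet protein that inhibits triglyceride breakdown and is known to be induced by low oxygen, was in no list and is named after its value was seen. It read 8.43, 7.68 and 7.55 in control, 8.50, 7.69 and 7.61 at 0.5 nM and 8.50, 7.80 and 7.84 at 0.25 nM. The difference of 0.79 ± 0.041 (SE; limma adjusted p = 0.00248) was next in rank to ANGPTL4, and it passed in all 15 other settings. HILPDA was picked for its value in this contrast and the settings reuse the same arrays. Its p-value and its calls are therefore a description and not a test.

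Among the HIF subunits and the oxygen-sensing machinery, 9 of 18 listed genes were measured and 0 passed in either direction. EPAS1, an alpha subunit, read 8.92 on each control array, 8.65, 8.31 and 8.33 at 0.5 nM and 8.50, 8.38 and 8.38 at 0.25 nM, a difference of 0.16 (limma adjusted p = 0.308). The dimer partner ARNT lay at 0.01 and the prolyl hydroxylases EGLN1 and EGLN3, themselves known targets, at 0.01 and 0.00. EGLN1 and EGLN3 lay at 0.011 within the 0.5 nM group and at 0.017 within the 0.25 nM group, as ARNT did at 0.25 nM. Those values are the shift of arrays on equal deposited values. They do not show that these genes were unchanged. Oxygen is known to act on the stability of the alpha subunit proteins, which arrays do not measure. HIF1A, VHL and HIF1AN were not analysed here.

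Genes of the VEGF system differed in direction. Of 18 measured angiogenic ligands and receptors, 1 passed as higher in replicate 1 and 4 as lower, where 1.3% and 3.04% of all genes did. VEGFB, a relative of VEGFA that binds FLT1, was higher: 8.99, 8.64 and 8.69 in control, 8.95, 8.46 and 8.64 at 0.5 nM, and 8.80, 8.41 and 8.41 at 0.25 nM (difference 0.38 ± 0.036, SE; limma adjusted p = 0.0109). That call was lost without 0.25 nM replicate 1 and without the group term. The other measured ligands VEGFC and PGF lay at 0.01 and 0.00.

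FLT1, the receptor shared by VEGFA and VEGFB, was lower in replicate 1. It read 6.60, 7.41 and 7.41 in control, 6.22, 6.88 and 6.88 at 0.5 nM and 6.10, 7.19 and 7.20 at 0.25 nM, a difference of -0.84 ± 0.079 (SE; limma adjusted p = 0.0106). All 3 of its replicate 1 values lay below all 6 others, and the call was lost without control replicate 1, without control replicate 2 and without the group term. The co-receptor NRP1 lay at -0.65 and did not pass (limma adjusted p = 0.0557), KDR lay at -0.13, and NRP2 at 0.01. The value of NRP2 is again that of equal deposited values within each group.

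The secreted factors CXCL8, FGF2 and PDGFA also passed as lower in replicate 1. CXCL8, a chemokine that attracts neutrophils and endothelial cells, lay at -0.77 (limma adjusted p = 0.0330). FGF2, a growth factor for endothelium and melanocytes, lay at -0.38 (limma adjusted p = 0.0494), and PDGFA, a growth factor for mesenchymal cells named here outside the rule for named genes, at -0.27 (limma adjusted p = 0.00534). The CXCL8 call was lost in 9 of 14 other settings and that of FGF2 in 11 of 15, each control array left out among both, while PDGFA lost its call only without the group term. THBS1, a matrix protein that inhibits vessel growth, lay at -0.04.

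Close relatives of the other genes showed small differences. BNIP3L, the sister mitophagy receptor of BNIP3, read 11.82, 11.66 and 11.66 in control, 11.88, 11.71 and 11.71 at 0.5 nM, and 11.90 and 11.89 in the kept arrays at 0.25 nM, a difference of 0.13 (limma adjusted p = 0.173). STC2 lay at 0.13 (limma adjusted p = 0.404), most of it from the 0.5 nM group, where replicate 1 stood 0.38 above the others. The measured angiopoietin-like genes ANGPTL5, ANGPTL6, ANGPTL7 and ANGPTL8 did not pass. ANGPTL5 and ANGPTL7 had equal deposited values within each group, which does not show that they were unchanged. Of the 12 relatives measured, VEGFB passed as higher, 0 passed as lower and 11 did not pass, where 1.3% of all genes passed as higher and 3.04% as lower.

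**Figure D3:**
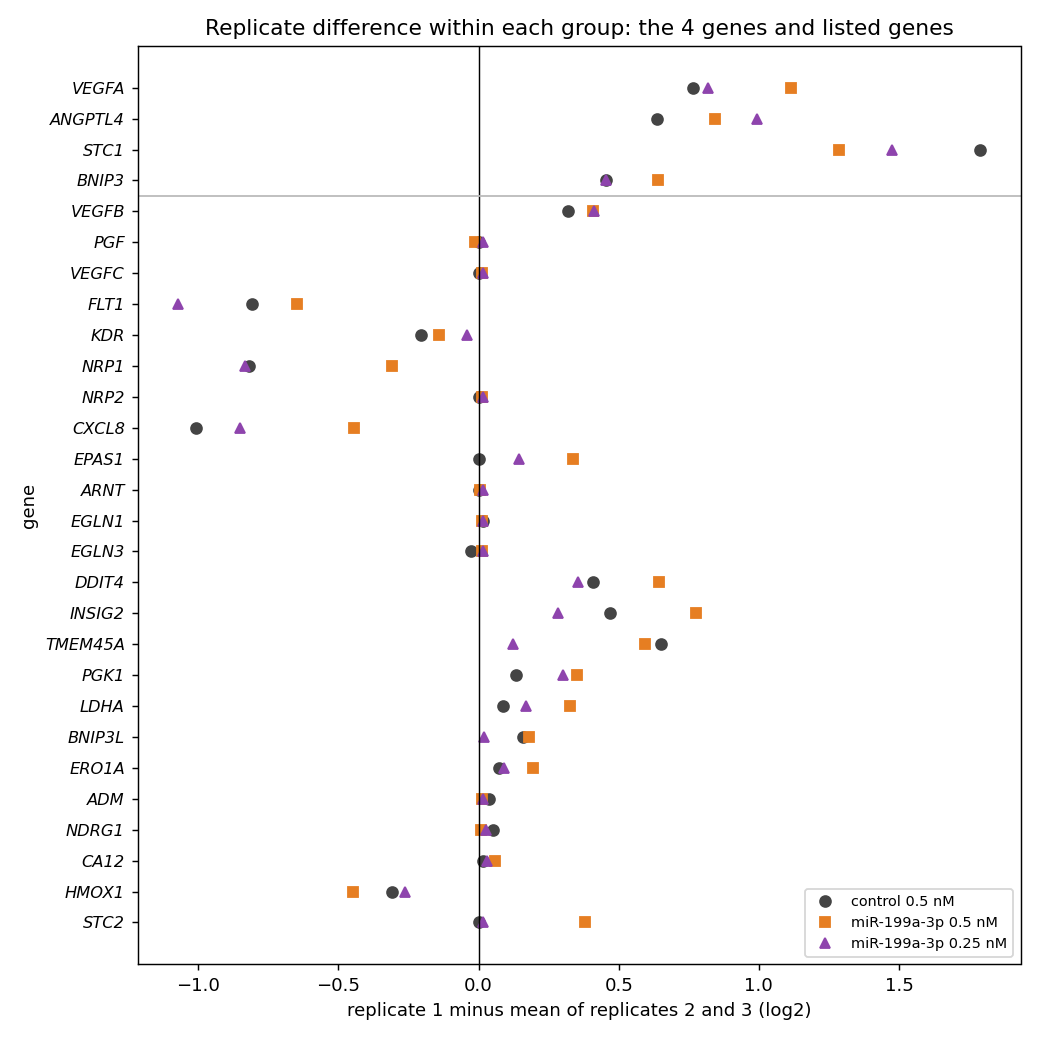
Replicate 1 minus the mean of replicates 2 and 3 (log2 units) within each transfection group, for the 4 genes (top) and for listed genes of the VEGF system, oxygen sensing and hypoxia response; symbols give the group. FLT1 and HMOX1 lie below 0 in every group, VEGFB and DDIT4 above, and ARNT and EGLN1 close to 0.

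Markers of other cell types were read in the same contrast. Of 2 measured fibroblast markers, LUM, a matrix proteoglycan, was lower at -1.54 (limma adjusted p = 0.0173). Its call was lost in 6 of 14 other settings, each of them leaving out 1 array of replicate 2 or 3. DCN lay at 0.01, with a mean level of 2.66. The mean of these 2 genes was 3.70 to 3.91 on replicate 1 arrays and 4.47 to 4.73 on the others. The leukocyte list held CD68, a lysosomal protein many cells make, at 0.12 (limma adjusted p = 0.00411), while CD14 and LYZ lay at -0.07 and 0.01 and did not pass. Over the 3 endothelial markers kept on all arrays the mean was 4.53 to 4.76 in replicate 1 and 4.50 to 4.67 in the others, and 0 of 4 measured passed. Of melanocytic and keratinocyte markers 0 passed either. Their part in the difference of the 4 genes was not tested.

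The genes whose pattern across the 9 arrays was most like the mean of the 4, after centring within groups, were RGS1, RPPH1, TYROBP, PLN, MYO1D, PTGES, EMILIN2, RRAS, RAMP2 and MIR146A. Their Pearson r ran from 0.991 to 0.998, among 42 genes above the median level with a difference of at least 0.5 log2 units. RAMP2, a partner of the adrenomedullin receptor, had a difference of 1.14, EMILIN2, a matrix glycoprotein, 1.03, and RGS1, a regulator of G protein signalling, 1.02. The 5 most opposed, out of 53, were the metalloproteases ADAM12 and MMP15, then SQOR, a mitochondrial sulphide oxidase, UGT8 and NPTX1, from -0.85 to -1.18 with r of -0.993 to -0.998. All 9 points share the replicate numbers on which the 4 genes were selected, so these values of r are a description.

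The comparison of mimic with control gave no call for the 4 genes in the limma model with a mean per group. At 0.5 nM, 0 of 4 passed where 63.3% of all genes did, and at 0.25 nM 0 of 4 where 64.2% did. The 4 genes were selected for a replicate 1 that stood apart, and that gap widened their spread within groups (SD 0.253 to 1.03 log2 units over the genes and groups). The choice thus made a call in this model less likely, and 0 of 4 is not a result independent of it. Replicate 1 arrays of the groups deviated together over all genes, while no label or check pairs replicates 2 and 3. The fit with the replicate number as a block is given beside each result whose call it changes. This block takes out the gap on which the 4 genes were selected, as does leaving out replicate 1 of every group. Their smaller SE in the blocked fit follows in part from that choice, so a blocked call is not independent of it either. In that fit 65.7% of all genes passed at 0.5 nM, 67.4% at 0.25 nM and 67% for both doses together against control, so a call alone does not set a gene apart from the rest. Limma on the 3 group means, which counts each group as 1 unit, called 0.128% of genes for both doses against control and none of the 4.

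ANGPTL4 lay below control at both doses, by -0.45 ± 0.37 at 0.5 nM (SE; 95% interval -1.36 to 0.47; limma adjusted p = 0.343) and -0.40 ± 0.42 at 0.25 nM (interval -1.42 to 0.62; limma adjusted p = 0.442). With the replicate block ANGPTL4 passed at -0.45 ± 0.076 and -0.51 ± 0.079 (limma adjusted p = 0.00826 and 0.00603), and at -0.48 for both together (limma adjusted p = 0.0043). The block takes out the gap on which ANGPTL4 was selected, so these calls are not independent of that choice. Every kept array of mimic-treated cells was below the control array of the same number, by -0.31, -0.48 and -0.55 at 0.5 nM and by -0.33 and -0.64 at 0.25 nM. No label pairs these arrays. Without replicate 1 of every group the differences were -0.52 and -0.68 and passed (limma adjusted p = 0.00501 and 0.00422, where 71.6% of all genes passed for each dose), as did both doses together at -0.60 (limma adjusted p = 0.00308, where 72% passed). With replicate 3 damaged, leaving out 0.25 nM replicate 2 as well left only replicate 1 there and turned that difference to 0.10. In the test on group means ANGPTL4 did not pass (limma adjusted p = 0.531 for both doses at -0.42).

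BNIP3 had its highest mean at 0.5 nM, 10.47 ± 0.36 against 9.93 ± 0.26 in control and 10.003 ± 0.253 at 0.25 nM (deposited log2, SD, n = 3 each). The difference from control was 0.45 ± 0.23 at 0.5 nM (SE; 95% interval -0.09 to 0.99; limma adjusted p = 0.130) and with the replicate block, where the SE was 0.047, it passed (limma adjusted p = 0.000689). At 0.25 nM it was -0.09 ± 0.23 (interval -0.63 to 0.46; limma adjusted p = 0.764), and 0.07 without the shift of arrays to the same median, so its direction there depends on that shift; it did not pass with the block (limma adjusted p = 0.161). Between the doses BNIP3 lay 0.53 ± 0.23 higher at 0.5 nM (limma adjusted p = 0.0802, with 62.2% of all genes passing), and passed with the block (limma adjusted p = 0.000347, with 65.4% passing). Without replicate 1 of every group this difference was 0.47 (limma adjusted p = 0.000117, with 70% of all genes passing). In that setting BNIP3 also passed against control, at 0.39 for 0.5 nM and -0.09 for 0.25 nM (limma adjusted p = 0.000218 and 0.0195). There 71.6% of all genes passed for each dose. For both doses together BNIP3 lay at 0.18 (limma adjusted p = 0.460, and 0.0125 with the block), and at 0.15 without replicate 1 of every group (limma adjusted p = 0.00258). In the test on group means it did not pass (limma adjusted p = 0.932).

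STC1 lay at -0.36 ± 0.67 from control at 0.5 nM (SE; 95% interval -1.94 to 1.23; limma adjusted p = 0.675) and at 0.21 ± 0.67 at 0.25 nM (interval -1.38 to 1.79; limma adjusted p = 0.807). With the replicate block the first passed (limma adjusted p = 0.0347) and the second did not (limma adjusted p = 0.146). Between the doses it lay at -0.56 ± 0.67 (limma adjusted p = 0.499), and with the block, where the SE was 0.11, it passed (limma adjusted p = 0.00714). The size of the change at 0.5 nM differed by replicate number: -0.69 in replicate 1 but -0.22 and -0.16 in replicates 2 and 3, where the signal was low. Without control replicate 1 the difference turned to 0.24. Without replicate 1 of every group STC1 passed at -0.19 for 0.5 nM and at 0.31 for 0.25 nM against control (limma adjusted p = 0.00502 and 0.00109). Between the doses it passed there at -0.50 (limma adjusted p = 0.000255). In that setting 71.6% of all genes passed for each dose and 70% between the doses. The STC1 values left in control and at 0.25 nM were exactly equal within each group, so the SE of 0.025 holds no spread from those groups. In the test on group means STC1 did not pass (limma adjusted p = 0.993).

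VEGFA lay close to control at both doses, at 0.08 ± 0.40 for 0.5 nM (SE; 95% interval -0.87 to 1.03; limma adjusted p = 0.883) and 0.16 ± 0.40 for 0.25 nM (interval -0.78 to 1.11; limma adjusted p = 0.743). The replicate block narrowed the intervals to -0.14 to 0.29 and -0.05 to 0.38 without a call. At 0.5 nM the sign differed between replicate numbers, at 0.31, -0.06 and -0.02. At 0.25 nM all 3 lay above control, by 0.20, 0.19 and 0.11. Between the doses VEGFA lay at -0.09 ± 0.40 (limma adjusted p = 0.867), and without replicate 1 of every group it passed at -0.19 (limma adjusted p = 0.049). In that setting 70% of all genes passed, and the VEGFA values left at 0.25 nM were exactly equal. A missed threshold does not show that VEGFA was the same in all groups.

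**Figure D4:**
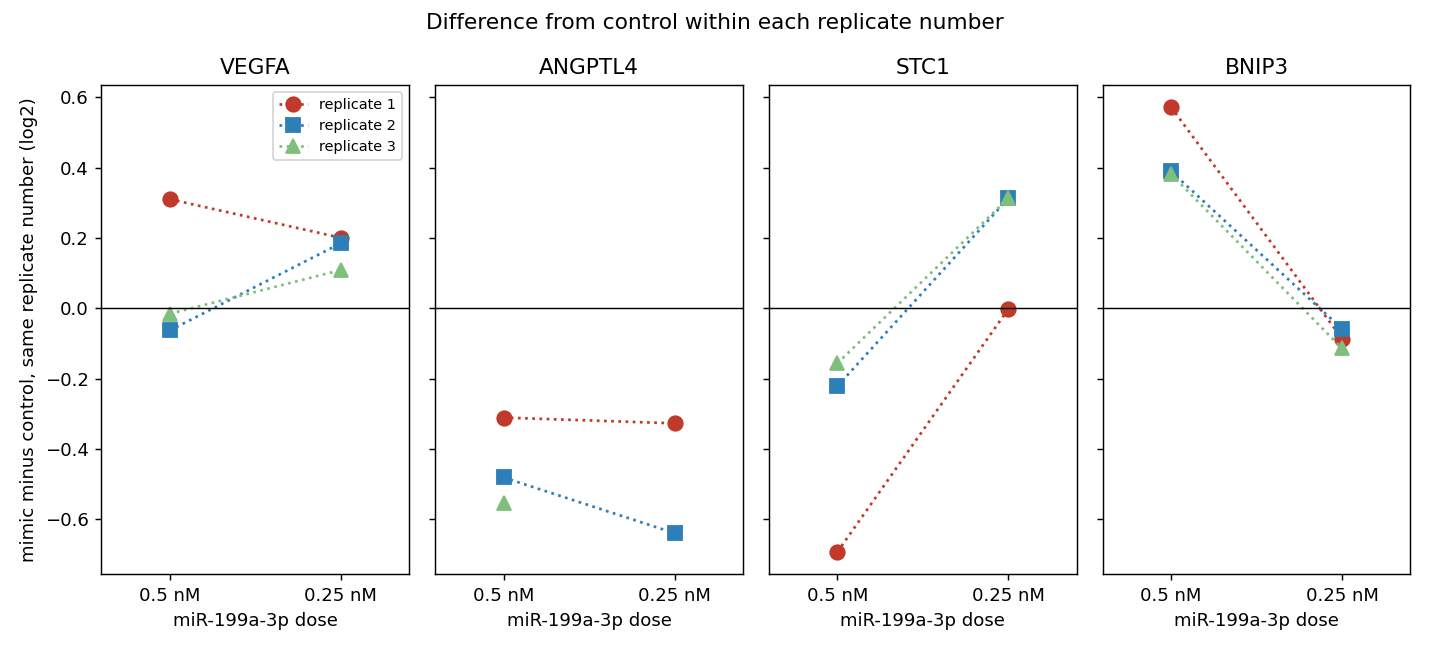
Difference of mimic from control arrays of the same replicate number (log2 units, arrays shifted to the same median) at 0.5 nM and 0.25 nM, for each of the 4 genes; symbols give the replicate number and dotted lines join the doses. ANGPTL4 is below 0 in every kept difference, and BNIP3 is above 0 at 0.5 nM and slightly below it at 0.25 nM, where its sign turns without the shift. No label pairs the arrays.

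The order of the group means differed from gene to gene. On deposited values, ANGPTL4 ran from 7.58 ± 0.48 at 0.5 nM to 7.69 ± 0.69 (n = 2) at 0.25 nM and 7.93 ± 0.37 in control (SD, n = 3 otherwise). STC1 ran from 4.29 ± 0.74 at 0.5 nM to 4.56 ± 1.03 in control and 4.92 ± 0.84 at 0.25 nM, and VEGFA from 7.94 ± 0.44 in control to 8.11 ± 0.64 and 8.26 ± 0.46. Neighbouring means in these orders lay less than 1 within-group SD apart, but that SD holds the gap of replicate 1. In the blocked fit ANGPTL4 at both doses and STC1 at 0.5 nM passed against control. That fit takes out the gap on which the genes were selected, so its calls are not independent of the choice. Over the 36 joined glycolysis and hypoxia genes, 7 were higher and 13 lower at 0.5 nM, where 33.2% of all genes passed as higher and 30.1% as lower. At 0.25 nM 5 were higher and 16 lower, where 30.3% and 33.9% of all genes passed. The median differences of the list were -0.04 and -0.11 log2 units, against 0.01 and -0.02 for all genes.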

How the data were processed

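Values were deposited by the authors as log2 intensities, 1 table of 44629 rows and 9 arrays; per the submitters' processing notes oligo, affy and RMA were used, with versions, order and genome build not given in the sources used here. The platform table gave 1 symbol to 15835 rows and none to 28794. The brightest row per symbol was kept, leaving 14812 genes, and each of the 4 genes had 1 row. In 0.25 nM replicate 3 no value has 0 as its first decimal (4178 to 4774 elsewhere), so values of fewer than 10 digits there were left out (19.1% of genes). Arrays were then shifted to the same median.

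Tests used limma 3.58.1 in R 4.3.3, two-sided, Benjamini-Hochberg adjusted over all genes, threshold 0.05: a mean per group for dose, and group plus replicate number for the replicate contrast. They were tested on simulated data, with independent noise of the same SD for every gene. Those data held no exactly equal values and none left out, so they do not show how the tests behave on these arrays. Because nothing says what cultures or days the triplicates share, p-values measure only the spread between these arrays. For the many genes with exactly equal values within groups, that spread is not one between independent arrays. Same-numbered arrays deviated together from their group means (r over genes 0.136 to 0.589 in all 9 pairs). Pairs of different number ran from -0.465 to 0.359, with 6 of 18 above 0.1. Replicate 1 pairs lay at 0.492 to 0.589, but those of replicates 2 and 3, at 0.282 to 0.345 and 0.136 to 0.279, overlapped with pairs of different number. The check sets replicate 1 apart and does not pair replicates 2 and 3, and no label pairs the arrays.

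The 4 genes and all gene lists (glycolysis, hypoxia response, oxygen sensing, angiogenesis, relatives, PPAR, ATF4, cholesterol, mitophagy and cell markers) were chosen with earlier results of these data known. Named were the 4 genes, up to 4 genes per list that passed in the replicate contrast by size, a set of regulators and markers whatever they did, and the 10 most similar and 5 most opposed genes. Alternatives covered the shift, the damaged column, dim genes, an intensity trend, row choice, single arrays, the replicate block and, chosen after seeing the data, leaving out replicate 1 of every group. Array number limits the precision.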

Additional observations from a re-analysis of the deposited data

Results flagged for a closer look

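BNIP3 lay on opposite sides of control at the 2 doses when arrays of the same replicate number were compared. The differences in numbers 1, 2 and 3 were 0.57, 0.39 and 0.38 log2 units at 0.5 nM. They were -0.09, -0.06 and -0.11 at 0.25 nM. No label pairs the arrays and the check does not pair replicates 2 and 3, so these differences rest on the numbering. BNIP3 differed between the doses by 0.53 (limma adjusted p = 0.0802 with a mean per group, 0.000347 in the blocked fit). With no shift of arrays to a common median, BNIP3 at 0.25 nM lay at 0.07 from control, so its side there turns. STC1 differed between the doses by -0.56 (limma adjusted p = 0.499 with a mean per group, 0.00714 in the blocked fit).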

How the results depend on the processing

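The fitted replicate 1 excess of the 4 genes moved by less than its SD over groups in all 59 values computed under other settings. It ran from 0.79 to 0.97 log2 units for VEGFA, 0.74 to 0.89 for ANGPTL4, 1.38 to 1.63 for STC1 and 0.45 to 0.55 for BNIP3. These settings reuse the arrays on which the 4 genes were selected, so the range of this contrast is a description and not a test. The number of genes passing in that contrast was 428 with no shift, 74 with no group term, and 213 (without control replicate 2) to 833 (without 0.5 nM replicate 1) with 1 array left out. Of 256 dose differences of the 4 genes under other settings, 205 kept direction and side of the threshold, 19 newly passed and 32 changed sign. None could lose a call, because none had passed with a mean per group. The cause of the changes was not tested. With dim genes left out, which leaves fewer genes to test, 3787, 3944, 3903 and 3645 passed at 0.5 nM, at 0.25 nM, for both doses and between doses; on group means 19 passed. In the fit with the replicate block 9725, 9982, 9930 and 9688 genes passed; calls of the 4 genes that the block changed are given with their values, and it changed no other. Leaving out replicate 1 of every group, chosen after seeing the data, turned VEGFA at 0.5 nM to -0.039, STC1 for both doses to 0.062 and ANGPTL4 between doses to 0.17. ANGPTL4 between doses also turned to 0.061 with the block and to 0.24 with the damaged column as deposited. With no shift BNIP3 at 0.25 nM turned to 0.070 and STC1 for both doses to 0.049. With 1 array left out, VEGFA ranged from -0.29 to 0.33 at 0.5 nM, -0.11 to 0.42 at 0.25 nM, -0.065 to 0.38 for both doses and -0.46 to 0.19 between doses. STC1 ranged from -0.79 to 0.24, -0.28 to 0.80 and -0.37 to 0.52 in the first 3 of these. ANGPTL4 ranged from -0.90 to 0.10 at 0.25 nM and -0.55 to 0.45 between doses, and BNIP3 from -0.24 to 0.065 at 0.25 nM. Low signal limits STC1, and 3 arrays a group limit all 4 genes.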

Other observations

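Other stress and metabolic lists were read in the contrast of replicate 1 with replicates 2 and 3, where 1.3% of all genes passed as higher and 3.04% as lower. Among 11 measured ATF4 and unfolded protein targets, PSAT1, an enzyme of serine synthesis, passed as higher at 0.29 (limma adjusted p = 0.0185; lost in 9 of 15 other settings), and 0 passed as lower. Of 4 measured PPAR responsive lipid genes 0 passed, with CPT1A, which admits fatty acids to mitochondria, at 0.09. Among 7 measured cholesterol synthesis genes HMGCS1, the enzyme before HMG-CoA reductase, was lower: it read 8.21, 8.59 and 8.59 in control, 8.65, 9.24 and 9.11 at 0.5 nM and 8.41, 8.98 and 8.98 at 0.25 nM (-0.48 ± 0.041, SE; limma adjusted p = 0.00857).

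Among 9 measured mitophagy and autophagy genes, the receptor SQSTM1 was lower in replicate 1 at -0.23 (limma adjusted p = 0.00426) and GABARAP, a membrane-anchored adaptor of autophagosomes, higher at 0.16 (limma adjusted p = 0.00927). HMGCS1 and SQSTM1 kept their calls in 14 of 15 other settings and GABARAP in 13.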
